A study of Homo sapiens with 12 samples.

Results

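The 9 genes described here, NR3C1, PPARA, VDR, RXRA, RARA, NR2F1, NR2F2, NR2F6 and ESRRA, encode nuclear receptors. They were chosen by name, with earlier results of these data known. Every probe whose gene symbol in the annotation of the Illumina HumanHT-12 v4 bead array is one of these names was taken. Of the 9 genes, 8 had a probe, 15 probes in all among 47323 on the array. NR2F2 had no probe listed under its symbol and was not analysed here. Levels of RNA were read in 22Rv1 cells, a human prostate carcinoma line, in 3 sublines that carry a short hairpin RNA switched on by doxycycline. The groups were hairpin 1 against HNF4G with doxycycline for 3 days, hairpin 1 without doxycycline, hairpin 2 against HNF4G with doxycycline, hairpin 2 without it, a scrambled hairpin with doxycycline, and the scrambled hairpin without it, each with 2 arrays. The series' design text calls the cells without doxycycline vehicle-treated. All cells were growing in RPMI medium with 10% serum. HNF4G, the hairpins' target, is a nuclear receptor itself, in the hepatocyte nuclear factor 4 family. Sources used here do not say whether a subline is 1 clone. They are also silent on whether replicates came from separate cultures, and every p-value therefore reflects the spread between 2 arrays a group, part or all of which may be technical.

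Nuclear receptors are transcription factors with a DNA-binding domain and a ligand-binding domain. NR3C1 is the glucocorticoid receptor, VDR the vitamin D receptor, RARA a retinoic acid receptor and PPARA a receptor for fatty acids, and VDR, RARA and PPARA bind DNA as heterodimers with RXRA, a retinoid X receptor. NR2F1, NR2F2 and NR2F6 belong to the COUP-TF subfamily and ESRRA is the estrogen-related receptor alpha, all 4 of them orphan receptors that act without a known classical hormone. Many of these receptors, the hepatocyte nuclear factor 4 proteins included, recognise a DNA half-site related to the letters AGGTCA, singly or in pairs. ESRRA works with the PGC-1 coactivators on genes of mitochondrial energy metabolism.

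The RefSeq promoter windows of the build GRCh38.p14, from 250 bases before to 50 bases after an annotated start, held 19 windows for 7 of the 9 genes, NR2F2 included. The window of ESRRA is shown because its transcript had the largest difference among the 8 genes measured, and the window of RARA because it alone of the 19 holds the half-site AGGTCA on either strand. In the window of ESRRA at chr11:64305274-64305573 on the plus strand, capitals mark GC boxes, GGGCGG or its complement, of which there are 8 with overlapping matches counted. In the window of RARA at chr17:40308930-40309229 on the plus strand, capitals mark the half-site.
ESRRA: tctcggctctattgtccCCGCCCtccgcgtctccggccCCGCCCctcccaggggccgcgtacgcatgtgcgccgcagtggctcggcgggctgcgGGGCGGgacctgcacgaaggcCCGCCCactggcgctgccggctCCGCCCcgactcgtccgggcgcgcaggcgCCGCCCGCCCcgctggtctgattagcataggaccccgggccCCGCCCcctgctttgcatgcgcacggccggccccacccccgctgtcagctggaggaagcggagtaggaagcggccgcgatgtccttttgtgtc
RARA: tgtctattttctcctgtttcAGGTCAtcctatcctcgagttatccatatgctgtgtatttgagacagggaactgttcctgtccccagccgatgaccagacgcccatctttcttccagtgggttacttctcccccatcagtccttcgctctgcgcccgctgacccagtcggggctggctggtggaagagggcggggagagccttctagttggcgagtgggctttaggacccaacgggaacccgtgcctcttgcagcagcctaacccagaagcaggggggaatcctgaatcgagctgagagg
A GC box stood in 14 of the 19 windows, against 45.0% of all 35116 RefSeq promoter windows searched, and the half-site in 1 of 19, against 13.8% of all windows. The count of 8 is not particular to ESRRA, since the windows of PPARA held 8 and 9 GC boxes. Of all windows, 1.495% held 7 or more. CAAAGTCCA, the core letters of the hepatocyte nuclear factor 4 element, stood in 0 of the 19 on either strand and in 0.384% of all windows. These matches describe letters in a window and say nothing of binding in these cells.

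Median intensity per array was 92.5 to 108 in the scanner's units and 14959 to 18293 probes per array were detected, meaning that their detection p-value against the negative control beads was under 0.01. The dimmest array, replicate 1 of the scrambled hairpin with doxycycline, had both lowest values. Values below are log2 intensities after background correction and quantile normalization, with an offset of 16 added, so that a probe without signal lies near 4. The 6 luminal prostate epithelium markers on the array (KRT8, KRT18, EPCAM, HOXB13, CDH1 and TMPRSS2) were detected on all 12 arrays. The 3 basal markers KRT5, KRT14 and KRT15, the fibroblast collagens COL1A1 and COL1A2 and the immune markers PTPRC and CD3E were detected on none, while DCN was detected on 8 arrays, LUM on 11, CD14 and CHGA on 2 each, and SYP and ENO2, genes of neuroendocrine cells, on 12. None of the markers tested changed past the threshold in any comparison below.

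HNF4G was measured first, as the check of the hairpins. Its normalized log2 intensity was 4.73 and 4.83 with hairpin 1 and doxycycline, against 6.30 and 6.18 without doxycycline. In hairpin 2 cells it was 4.71 and 4.35 with doxycycline, against 6.40 and 6.49 without. In the scrambled subline it was 5.81 and 6.19 with doxycycline and 6.35 and 6.13 without. HNF4G was not above background on any of the 4 arrays of hairpin cells with doxycycline and was detected on the other 8. It fell at least 2.08-fold with hairpin 1 (log2 difference of the measured means -1.46 ± 0.18, SE; limma adjusted p = 0.00184) and at least 2.48-fold with hairpin 2 (-1.92 ± 0.18, SE; limma adjusted p = 3.23e-04). Without background correction the HNF4G differences were smaller, at -0.55 with hairpin 1 and -0.77 with hairpin 2, and over all settings run the highest limma adjusted p was 0.0362 with hairpin 1 and 0.00812 with hairpin 2. The bounds above set the brighter group's mean against the higher, in each array of the dim group, of the lowest signal of a detected probe and the probe's own signal. In the scrambled subline the difference was -0.24 ± 0.18 and did not pass (limma adjusted p = 0.712). In RNA from whole cultures, fewer cells with a transcript and less of it per cell cannot be told apart, here and in all that follows.

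Detection differed widely among the 15 probes. The filter, a detection p under 0.01 on at least 2 of the 12 arrays, kept 19172 probes of the array (40.5%) and 8 of the 15 nuclear receptor probes, 1 for each gene. The kept probes of RARA (ILMN_1659206), RXRA (ILMN_1687315), NR2F1 (ILMN_1786197), NR2F6 (ILMN_1672080) and ESRRA (ILMN_1774272) were detected on all 12 arrays. NR3C1 (ILMN_2389347) was detected on 8 arrays, VDR (ILMN_2319952) on 7 and PPARA (ILMN_2362847) on 3. A filter of this kind lets a probe pass through the group where it is bright, and 1 such case is PPARA, whose 3 detections were both arrays of hairpin 2 without doxycycline and replicate 2 of hairpin 2 with it.

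The other 7 probes failed the filter and stayed within 1 log2 unit of the level without signal. For NR3C1, ILMN_1668525 was detected on 0 arrays (log2 intensity 4.21 to 4.81) and ILMN_1812384 on 1 array (4.32 to 4.98). The second VDR probe, ILMN_1666203, lay between 4.27 and 4.65 and was detected on 0 arrays. Both further RARA probes were undetected throughout, ILMN_1677197 at 4.33 to 4.68 and ILMN_1791902 at 4.31 to 4.48. PPARA had 2 undetected probes, ILMN_1659346 at 4.32 to 4.50 and ILMN_1700488 at 4.35 to 4.71. A signal at this level does not show that the transcript these probes target is absent, only that it was not detectable on these arrays.

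**Figure D1:**
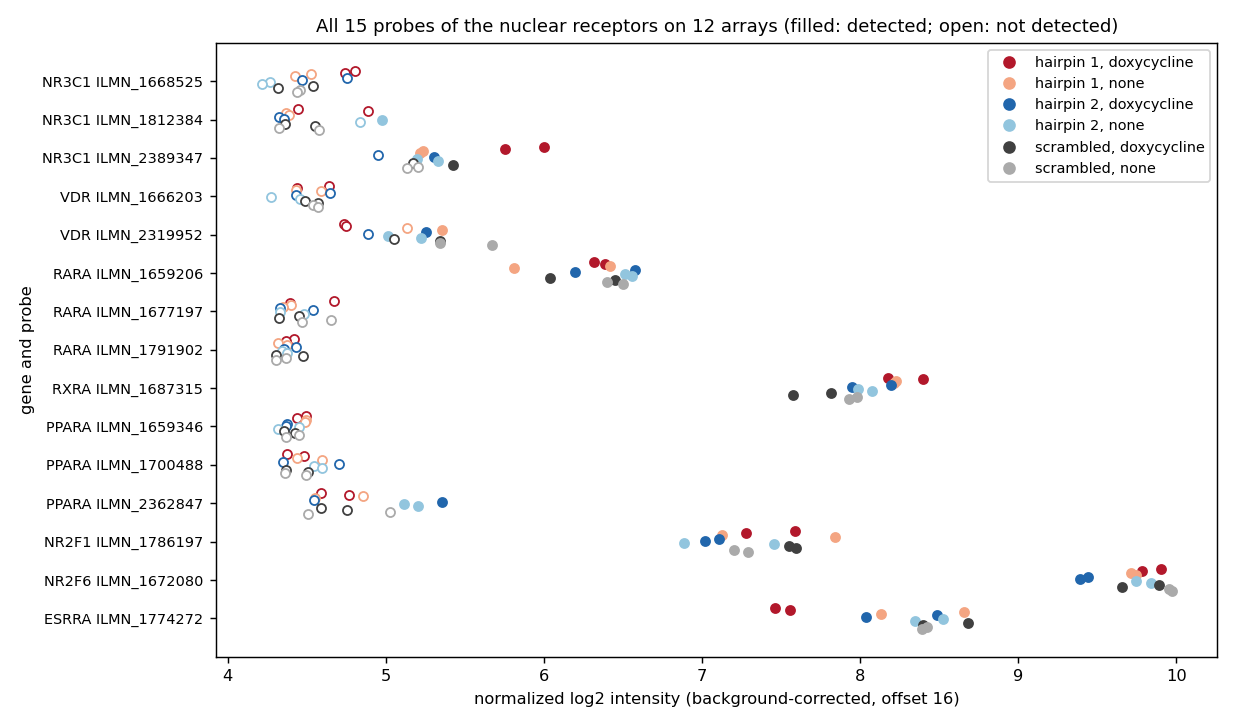
Normalized log2 intensity (horizontal axis) of each of the 15 probes (vertical axis) on the 12 arrays, coloured by group, with filled points where the probe was detected and open points where it was not. The 5 probes filled on every array are those of RARA, RXRA, NR2F1, NR2F6 and ESRRA, and 7 probes stay below 5 with 1 filled point between them.

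NR3C1, the glucocorticoid receptor, was brightest in hairpin 1 cells with doxycycline. Its kept probe read 6.0 and 5.75 log2 units there, against 5.24 and 5.22 without doxycycline. With hairpin 2 it read 4.95 and 5.30 with doxycycline, against 5.20 and 5.33 without. The scrambled subline gave 5.17 and 5.43 with doxycycline and 5.20 and 5.13 without, and neither of its arrays without doxycycline detected the probe. Both hairpin 1 arrays with doxycycline thus stood above the other 10 arrays. The log2 difference with doxycycline was 0.65 ± 0.17 with hairpin 1 (SE; 95% interval 0.27 to 1.02; limma unadjusted p = 0.00241, adjusted p = 0.136), -0.14 ± 0.17 with hairpin 2 (adjusted p = 0.783) and 0.13 ± 0.17 in the scrambled subline (adjusted p = 0.861). None of the 3 passed the adjusted threshold of 0.05. In the scrambled subline 1 of 2 arrays with doxycycline and 0 of 2 without detected the probe, so no fold is given there. Between the hairpins the response differed by -0.78 ± 0.25 log2 units, hairpin 2 minus hairpin 1, which did not pass either (limma adjusted p = 0.285).

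VDR was lowest in the same 2 arrays. Its kept probe read 4.74 and 4.75 log2 units with hairpin 1 and doxycycline, not above background on either array, against 5.14 and 5.36 without doxycycline, where 1 of 2 arrays detected it. With hairpin 2 the values were 5.25 and 4.89 with doxycycline and 5.01 and 5.22 without. With the scrambled hairpin they were 5.05 and 5.34 with doxycycline and 5.34 and 5.67 without. The 2 hairpin 1 arrays with doxycycline lay below the other 10. The log2 difference of the measured means with hairpin 1 was -0.50 ± 0.19 (SE; 95% interval -0.91 to -0.10; limma unadjusted p = 0.0191, adjusted p = 0.328). No fold is given, because the group with doxycycline was not above background and only 1 of 2 arrays without it detected the probe. With hairpin 2 the difference was -0.05 ± 0.19 and with the scrambled hairpin -0.31 ± 0.19 (limma adjusted p = 0.941 and 0.623). None of the 3 changes passed the threshold.

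RARA and RXRA, which can form a heterodimer, were both detected on every array. RARA read 6.32 and 6.38 with hairpin 1 and doxycycline, against 6.42 and 5.81 without doxycycline. It read 6.58 and 6.20 with hairpin 2 and doxycycline, against 6.51 and 6.56 without. In the scrambled subline it read 6.04 and 6.45 with doxycycline and 6.40 and 6.50 without. In each subline the 2 groups overlapped. The log2 differences for RARA were 0.23 ± 0.22 with hairpin 1, -0.15 ± 0.22 with hairpin 2 and -0.21 ± 0.22 with the scrambled hairpin (SE; limma adjusted p = 0.745, 0.813 and 0.811), with 95% intervals from -0.67 to 0.70 in all.

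RXRA read 8.17 and 8.40 log2 units with hairpin 1 and doxycycline, against 8.23 and 8.21 without doxycycline. Hairpin 2 cells gave 8.20 and 7.95 with doxycycline, against 7.99 and 8.07 without. With the scrambled hairpin it read 7.81 and 7.58 with doxycycline, against 7.98 and 7.93 without. The groups overlapped in both hairpin sublines, and in the scrambled subline both arrays with doxycycline were lower. That scrambled difference was -0.26 ± 0.16 (SE; limma adjusted p = 0.642), beside 0.07 ± 0.16 with hairpin 1 and 0.04 ± 0.16 with hairpin 2 (limma adjusted p = 0.927 and 0.938).

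PPARA, at the edge of detection, read 4.59 and 4.77 with hairpin 1 and doxycycline, against 4.85 and 4.55 without doxycycline, all 4 not above background, so no fold is given. Hairpin 2 cells gave 4.55 and 5.36 with doxycycline, against 5.11 and 5.20 without. In the scrambled subline it read 4.59 and 4.76 with doxycycline and 5.03 and 4.51 without, again all not above background. The replicates of hairpin 2 with doxycycline had an SD of 0.57, the widest of the 8 kept probes in any group. With hairpin 2 the log2 difference was -0.21 ± 0.25 (SE; limma adjusted p = 0.768).

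NR2F1 and NR2F6 are the COUP-TF subfamily members that could be measured. NR2F1 read 7.59 and 7.28 with hairpin 1 and doxycycline, against 7.13 and 7.84 without doxycycline. In hairpin 2 cells it read 7.11 and 7.02 with doxycycline, against 6.88 and 7.45 without. Only in the scrambled subline did its groups not overlap, with 7.55 and 7.59 with doxycycline and 7.21 and 7.29 without. The log2 differences of NR2F1 were -0.05 ± 0.24, -0.10 ± 0.24 and 0.32 ± 0.24 in that order of sublines (SE; limma adjusted p = 0.967, 0.887 and 0.695).

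NR2F6 read 9.90 and 9.78 log2 units with hairpin 1 and doxycycline, against 9.71 and 9.75 without doxycycline. With hairpin 2 it read 9.44 and 9.39 with doxycycline, against 9.75 and 9.84 without. The scrambled subline gave 9.89 and 9.66 with doxycycline and 9.95 and 9.97 without. The 2 groups did not overlap in any subline, and the hairpin 2 arrays with doxycycline were the lowest of the 12. Their log2 difference was -0.38 ± 0.15 (SE; 95% interval -0.70 to -0.05; limma unadjusted p = 0.0271, adjusted p = 0.278), while the differences with hairpin 1 and the scrambled hairpin were 0.11 ± 0.15 and -0.19 ± 0.15 (limma adjusted p = 0.846 and 0.733). NR2F6 passed the threshold in none of the 3.

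ESRRA had the largest difference with doxycycline among the 8 genes. Its probe, detected on all 12 arrays, read 7.46 and 7.56 log2 units with hairpin 1 and doxycycline, against 8.66 and 8.13 without doxycycline. With hairpin 2 it read 8.49 and 8.04 with doxycycline, against 8.53 and 8.35 without. With the scrambled hairpin it read 8.68 and 8.40 with doxycycline, against 8.42 and 8.39 without. Both hairpin 1 arrays with doxycycline were below the other 10, and the groups of the other two sublines overlapped. In the scanner's own units, before normalization, the hairpin 1 arrays read 264 and 293 with doxycycline and 501 and 306 without.

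For ESRRA the log2 difference with doxycycline was -0.89 ± 0.21 with hairpin 1 (SE; 95% interval -1.33 to -0.44; limma unadjusted p = 8.23e-04, adjusted p = 0.0821), -0.17 ± 0.21 with hairpin 2 (95% interval -0.62 to 0.27; adjusted p = 0.768) and 0.13 ± 0.21 with the scrambled hairpin (95% interval -0.31 to 0.58; adjusted p = 0.890). The hairpin 1 difference thus missed the threshold in the main analysis. It passed with an offset of 50 (-0.78, limma adjusted p = 0.00371), without background correction and with the deposited log2 values (both -0.67 and adjusted p = 0.0105). The last 2 settings use nearly the same values and do not count as separate. With no filter on dim probes and with only the groups compared it did not pass (limma adjusted p = 0.154 and 0.225). It did not pass in any of the 12 fits that left out 1 array, where it lay between -1.15 and -0.63. ESRRA minus the scrambled response was -1.02 ± 0.29 for hairpin 1 (limma adjusted p = 0.256, or 0.0465 with an offset of 50, where the value was -0.90) and -0.30 ± 0.29 for hairpin 2 (adjusted p = 0.723). The difference between the hairpins, hairpin 2 minus hairpin 1, was 0.71 ± 0.29 and did not pass (limma adjusted p = 0.424).

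**Figure D2:**
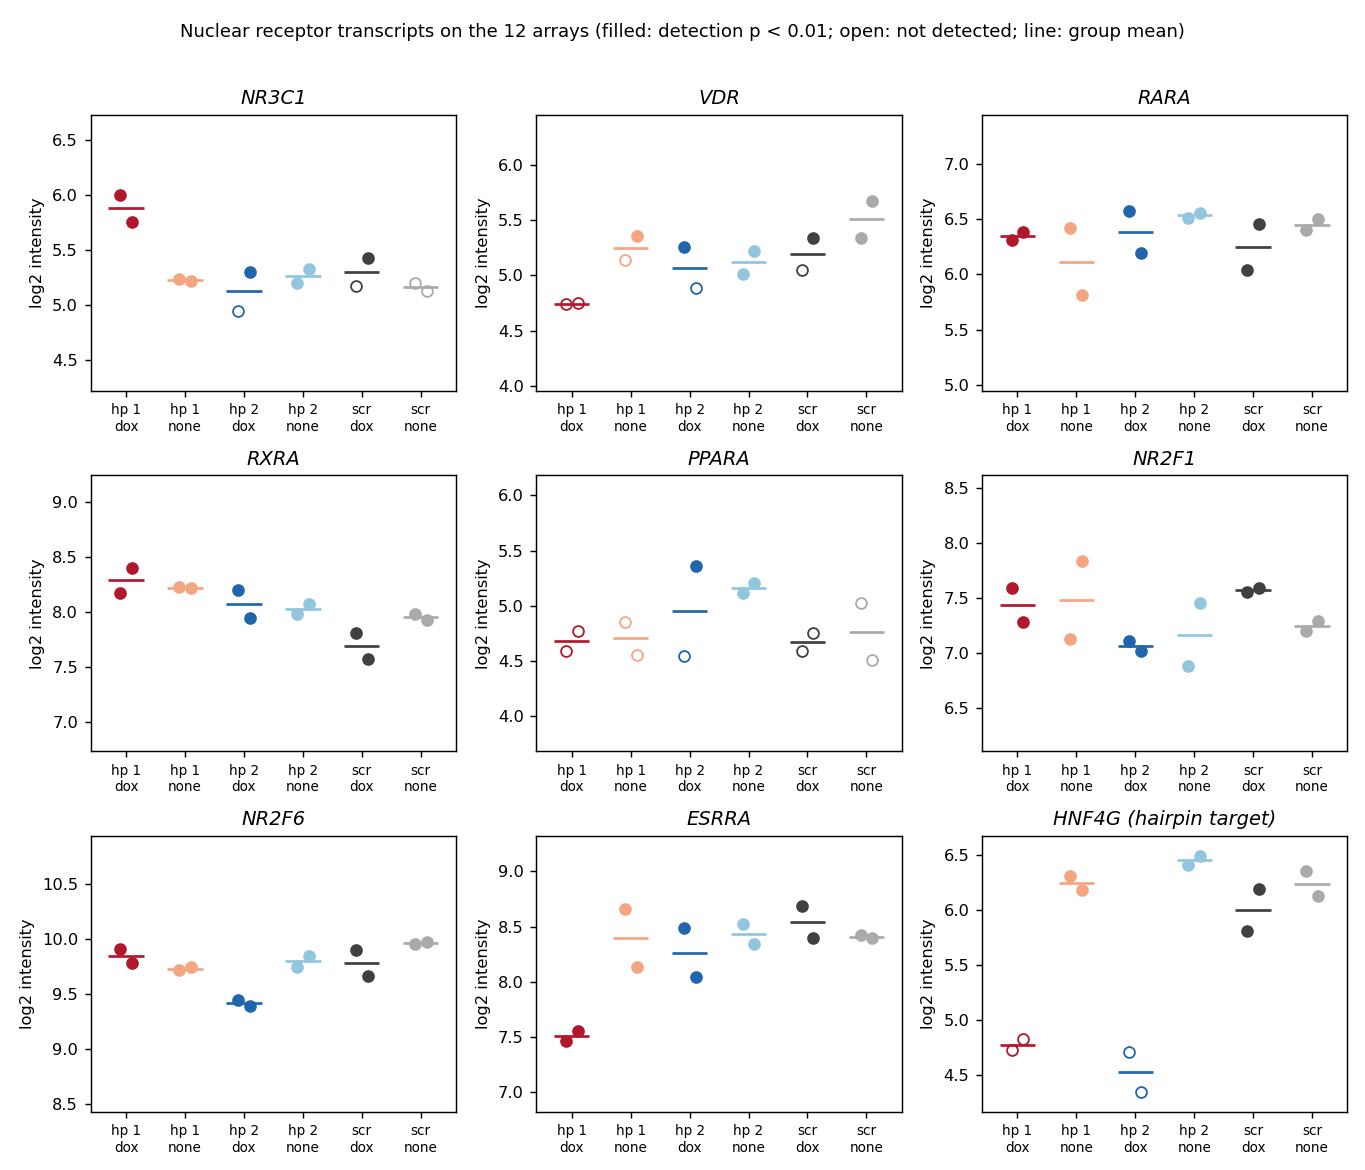
Normalized log2 intensity (vertical axes, each spanning 2.5 log2 units) of the kept probe of the 8 nuclear receptors and of HNF4G in the 6 groups (hp, hairpin; scr, scrambled; dox, doxycycline), with 1 point per array, filled where detected and open where not, and a line at the group mean. ESRRA sits at 7.46 and 7.56 with hairpin 1 and doxycycline, below its other 10 arrays, and HNF4G is low with both hairpins.

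Across the 8 probes tested, 0 passed the threshold in any of the 10 comparisons by limma. The share of all 19172 kept probes that passed was 0.589% for doxycycline against none with hairpin 1, 0.97% with hairpin 2 and 0.0313% with the scrambled hairpin. At shares this small, 0 of 8 lies near the background and is no result about these genes. At an unadjusted p under 0.05 there were 3 of 8 with hairpin 1 (NR3C1, VDR and ESRRA; 11.1% of all kept probes), 1 of 8 with hairpin 2 (NR2F6; 13.9%) and 0 of 8 with the scrambled hairpin (9.52%). The genes were chosen with earlier results of these data known, so such counts are not those of an unselected set. The median log2 difference of the 8 probes was 0.02, -0.14 and -0.14 in these 3 comparisons, beside medians of 0.01, 0.00 and 0.00 over all kept probes. Groups of 2 arrays did not overlap for 4 of 8 probes with hairpin 1, 1 of 8 with hairpin 2 and 3 of 8 with the scrambled hairpin, against 42.2%, 46.9% and 38% of all kept probes.

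**Figure D3:**
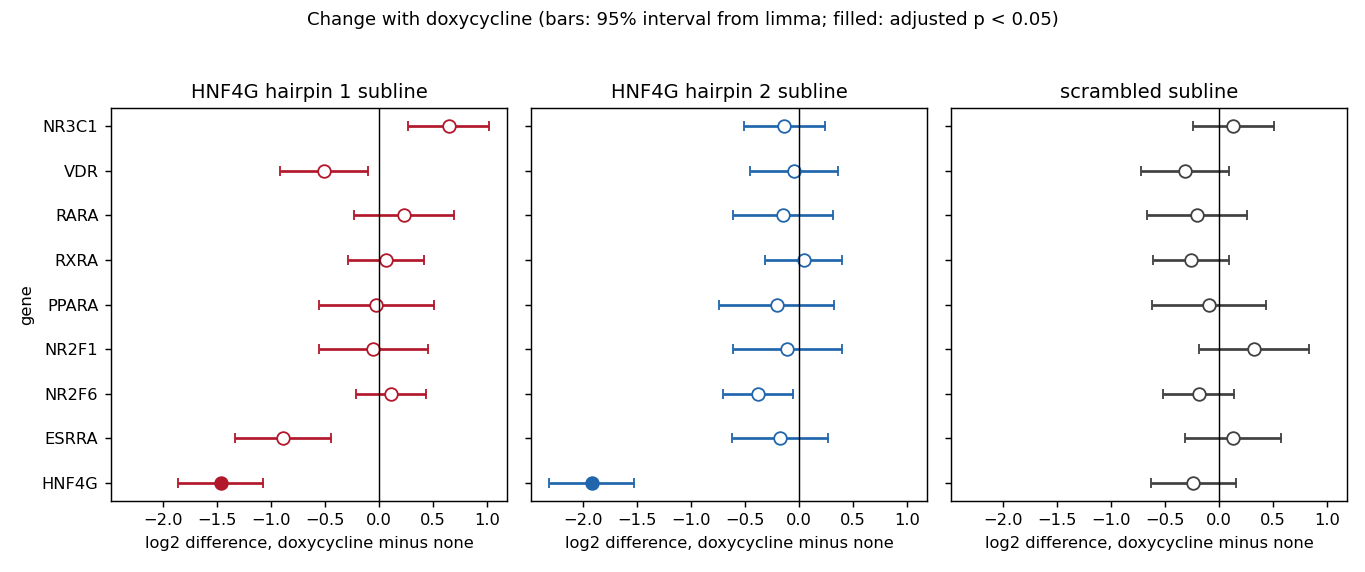
Log2 difference, doxycycline minus none (horizontal axes), of the 8 nuclear receptors and HNF4G (rows) in the 3 sublines, with 95% intervals from limma, filled where the adjusted p was under 0.05. HNF4G is the only filled point with hairpin 1 (-1.46) and with hairpin 2 (-1.92), and ESRRA (-0.89), NR3C1 (0.65) and VDR (-0.50) with hairpin 1 have intervals that leave out 0 without passing the adjusted threshold.

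The next question was whether the hairpin responses differed from the scrambled one. For the mean of both hairpin responses minus the scrambled response, 0 of 8 probes passed by limma, beside 0.209% of all kept probes, and 1 of 8 had an unadjusted p under 0.05, beside 11.6%. ESRRA, at -0.66 ± 0.25 (SE; limma adjusted p = 0.332), had the smallest p, and the other 7 lay between -0.40 for NR2F1 and 0.31 for RXRA. For hairpin 1 alone minus the scrambled response 0 of 8 passed (background 0.177%) and ESRRA alone had an unadjusted p under 0.05 (10.3% of all kept probes). For hairpin 2 alone 0 of 8 passed (background 0.214%) and 0 of 8 had an unadjusted p under 0.05 (12.3%). For the difference between the hairpins 0 of 8 passed (background 0.0417%). In the last of these, NR3C1 (-0.78), ESRRA (0.71) and NR2F6 (-0.49) had an unadjusted p under 0.05, 3 of 8 beside 10.3% of all kept probes. These comparisons and those above use the same arrays, so they do not count as separate evidence.

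The sublines were also compared with each other. Without doxycycline, 0 of 8 probes passed for hairpin 1 against the scrambled subline (background 0.334%), 0 of 8 for hairpin 2 against the scrambled subline (background 0.25%), and 0 of 8 for hairpin 2 against hairpin 1 (background 0.00522%). At an unadjusted p under 0.05 there were also 0 of 8 in each of the 3, beside 9.27%, 9.93% and 5.25% of all kept probes. The groups did not overlap for 3, 5 and 4 of the 8 probes, beside 37.3%, 39.6% and 34% of all kept probes. PPARA was detected on both arrays of hairpin 2 without doxycycline and on 0 of 2 arrays of hairpin 1 and 0 of 2 of the scrambled subline without it, so no size is given for these differences. VDR was -0.39 ± 0.19 for hairpin 2 minus scrambled (adjusted p = 0.524).

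Ordered by group mean, the level of ESRRA ran from 8.54 ± 0.20 log2 units (SD, n = 2) with the scrambled hairpin and doxycycline down through 8.44, 8.41, 8.40 and 8.26, to 7.51 ± 0.07 with hairpin 1 and doxycycline. Only the last step, 0.76 log2 units between hairpin 2 with doxycycline and hairpin 1 with doxycycline, separated neighbours whose arrays did not overlap. For NR3C1 2 steps separated neighbours in this way. The top step was 0.58, from hairpin 1 with doxycycline to the scrambled hairpin with doxycycline. The other ran from hairpin 1 without doxycycline to the scrambled hairpin without it, which was not above background, so no size is given for it. For VDR the last place was held by hairpin 1 with doxycycline, which was not above background, so no size is given for that step. NR2F6 had 2, of 0.12 at the top, below the scrambled hairpin without doxycycline, and 0.31 at the bottom, above hairpin 2 with doxycycline. RXRA ran from 8.29 ± 0.16 with hairpin 1 and doxycycline to 7.70 ± 0.17 with the scrambled hairpin and doxycycline, and 3 of its 5 steps separated neighbours. For RARA 1 of 5 steps did, and for PPARA and NR2F1 0 of 5 did. The same count was not made over all kept probes, so these counts describe the order and are no result about the genes. In the comparisons of 2 groups above, the groups did not overlap for 34% to 46.9% of all kept probes. Groups further apart in the order of NR2F1 did not always overlap, as in the scrambled subline with and without doxycycline.

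The deposited series matrix gives a second reading of the same arrays. Its log2 values equalled quantile-normalized intensities without background correction to within 0.001 for 99.99% of the 567876 values and for all 180 values of the 15 probes, and its median was 6.67. For each of the 8 kept probes in each of the 3 sublines, the difference with doxycycline was smaller in it. With hairpin 1 the NR3C1 difference was 0.24 there (limma adjusted p = 0.328) and 0.65 from background-corrected intensities, and the VDR difference -0.16 (adjusted p = 0.590) and -0.50. For NR2F6, detected on every array, the hairpin 2 difference was -0.34 (adjusted p = 0.0814) against -0.38. For ESRRA with hairpin 1 it was -0.67 against -0.89, and the value from the series matrix passed the threshold, as given above.

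**Figure D4:**
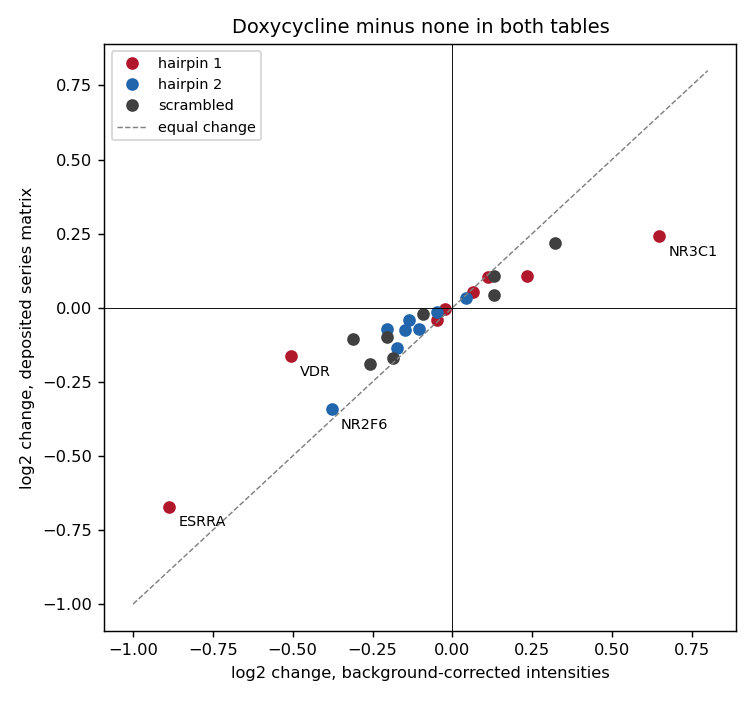
Log2 difference, doxycycline minus none, of the 8 kept probes in the 3 sublines, from background-corrected intensities (horizontal axis) and from the deposited series matrix (vertical axis), with a dashed line where both are equal. NR3C1 (0.65 against 0.24) and VDR (-0.50 against -0.16) with hairpin 1 lie far from the dashed line, and NR2F6 with hairpin 2 (-0.38 against -0.34) lies close to it.

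The wider pathway was followed in lists of genes, also chosen with earlier results of these data known. Each gene was read from its brightest kept probe and adjusted over all 19172 kept probes. Of 35 other nuclear receptors listed, 30 were on the array and 15 were tested. HNF4G, the hairpins' target, was the 1 that fell with hairpin 1 and with hairpin 2, beside 0.589% and 0.97% of all kept probes, and 0 rose in any comparison. The design set out to lower it, so its fall is no result about the list. At an unadjusted p under 0.05 there were 3 of 15 with hairpin 1 and 1 of 15 with hairpin 2, HNF4G included, and 3 of 15 with the scrambled hairpin. The shares of all kept probes were 11.1%, 13.9% and 9.52%. The median of the 15, HNF4G included, was -0.05 in the mean hairpin response minus the scrambled response, beside 0.01 over all 11164 genes tested. Next to HNF4G the smallest p for the mean hairpin response minus the scrambled response belonged to RORB, an orphan receptor (0.78 ± 0.25, SE; limma adjusted p = 0.248), and NR4A2, an immediate early receptor (-0.51 ± 0.32, adjusted p = 0.563). NR4A2 was detected on 7 arrays, and on neither scrambled array without doxycycline. The changes with hairpin 1, hairpin 2 and the scrambled hairpin were 0.41, 0.21 and -0.47 for RORB, and -0.04, 0.22 and 0.60 for NR4A2, the last from a group not above background. HNF4G itself passed there (-1.45 ± 0.22 between measured means, adjusted p = 0.0155), but not without replicate 2 of the scrambled hairpin with doxycycline (-1.26, adjusted p = 0.0679) or without doxycycline (-1.34, adjusted p = 0.108). It also passed for hairpin 2 minus the scrambled response (-1.68 ± 0.26, adjusted p = 0.0228), a call kept in 4 of 12 fits that left out 1 array, and did not pass for hairpin 1 minus the scrambled response (-1.23 ± 0.26, adjusted p = 0.106).

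Coregulators bridge the receptors to chromatin enzymes and to transcription. Of 20 listed, 17 were on the array and 14 tested, and 1 of them passed in 1 of the 10 comparisons, the one with hairpin 1, where 0.589% of all kept probes passed. At an unadjusted p under 0.05 there were 1 of 14 with hairpin 1 and 3 of 14 with hairpin 2, beside 11.1% and 13.9% of all kept probes. TBL1X, a subunit of the NCOR and SMRT corepressor complexes, fell with hairpin 1, at 7.62 and 7.56 log2 units with doxycycline, against 8.58 and 8.35 without (-0.87 ± 0.16, SE; limma adjusted p = 0.0276). With hairpin 2 it read 8.01 and 8.10 with doxycycline and 8.49 and 8.42 without (-0.40 ± 0.16, adjusted p = 0.284), and in the scrambled subline 8.23 and 8.43 with doxycycline and 8.26 and 8.53 without (-0.06 ± 0.16, adjusted p = 0.936). This hairpin 1 result no longer passed without any 1 of the 4 arrays compared (-0.99 to -0.76, lowest adjusted p = 0.0726) and with only those 4 arrays in the fit (adjusted p = 0.155). PPARGC1B, the PGC-1 beta coactivator of ESRRA, was detected on 10 arrays, and on neither scrambled array without doxycycline. It had the smallest p of the list in the mean hairpin response minus the scrambled response, at -0.72 ± 0.22 (limma adjusted p = 0.242). The changes behind it were -0.02 for hairpin 1, -0.03 for hairpin 2 and 0.69 for the scrambled hairpin, the last from a group not above background. TBL1XR1, a close relative of TBL1X, was at -0.30 ± 0.20 in the same comparison (limma adjusted p = 0.596). This was made of 0.10 with hairpin 1, 0.09 with hairpin 2 and 0.40 with the scrambled hairpin.

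Among known targets of the receptors, 1 gene passed, in the comparison with hairpin 1, where 0.589% of all kept probes did. Of 14 symbols listed as retinoic acid receptor targets, 11 were on the array and 5 tested. RARRES3 and PLAAT4 among those listed are the old and new symbols of the same gene. DHRS3, an enzyme that reduces retinaldehyde to retinol, fell with hairpin 1, at 6.02 and 6.33 log2 units with doxycycline, against 7.44 and 7.15 without (-1.12 ± 0.23, SE; limma adjusted p = 0.0486). DHRS3 read 6.99 and 6.48 with hairpin 2 and doxycycline, against 7.03 and 7.35 without (-0.46 ± 0.23, adjusted p = 0.401), and 7.87 and 7.48 with the scrambled hairpin and doxycycline, against 7.60 and 8.01 without (-0.13 ± 0.23, adjusted p = 0.907). That call was kept in 4 of 12 fits without 1 array, and was lost with no filter on dim probes (adjusted p = 0.120), with the replicate number as a block (0.0682) and with only the arrays compared (0.101). TGM2, a transglutaminase, was detected on 6 arrays, and on no scrambled array with or without doxycycline. RDH10, a retinol dehydrogenase, and TGM2 were at -0.34 ± 0.24 and -0.40 ± 0.33 in the mean hairpin response minus the scrambled response (limma adjusted p = 0.614 and 0.674). The RDH10 value was made of -0.04 with hairpin 1, 0.17 with hairpin 2 and 0.41 with the scrambled hairpin. For TGM2 the parts were -0.50, 0.10 and 0.21, the last between groups not above background. The median of the 5 genes in the mean hairpin response minus the scrambled response was -0.34.

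By limma the 4 other target lists had 0 genes past the threshold in each of the 10 comparisons. Of 12 glucocorticoid receptor targets, 11 were tested, and 2 of them had an unadjusted p under 0.05 in the mean hairpin response minus the scrambled response, beside 11.6% of all kept probes. Without doxycycline, 4 of the 11 had one for hairpin 2 minus scrambled, with a median of 0.24, and 3 for hairpin 1 minus scrambled, with a median of 0.19, beside 9.93% and 9.27% of all kept probes. MT2A, a metallothionein, had the smallest p of them in the mean hairpin response minus the scrambled response, at -1.12 ± 0.24 (limma adjusted p = 0.103), made of -0.91 with hairpin 1, -0.82 with hairpin 2 and 0.25 with the scrambled hairpin. GADD45B, a stress-induced gene, was at 0.72 ± 0.25 (adjusted p = 0.292), made of 0.05 with hairpin 1, 0.23 with hairpin 2 and -0.58 with the scrambled hairpin. FKBP5, a cochaperone of steroid receptors, was at -0.36 ± 0.19 (adjusted p = 0.489). The median of the 11 there was -0.09, beside 0.01 over all genes tested.

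Of 20 PPARA targets 18 were on the array and 12 tested, with a median of 0.06 in the same comparison and an unadjusted p under 0.05 for 3, beside 11.6% of all kept probes. The acyl-CoA synthetase ACSL1 was at 0.68 ± 0.23 (SE; limma adjusted p = 0.277), made of 0.19 with hairpin 1, 0.44 with hairpin 2 and -0.36 with the scrambled hairpin, the mitochondrial acylcarnitine carrier SLC25A20 at 0.61 ± 0.23 (adjusted p = 0.317) and ANGPTL4, an inhibitor of lipoprotein lipase, at -0.55 ± 0.21 (adjusted p = 0.324). Of 10 vitamin D receptor targets 9 were on the array and only 4 tested, with an unadjusted p under 0.05 for 0. Among them was IGFBP3, a binding protein of insulin-like growth factors, at 0.32 ± 0.23. This was made of -0.29 with hairpin 1, -0.03 with hairpin 2 and -0.48 with the scrambled hairpin. The calcium pump ATP2B1 was at 0.30 ± 0.25, made of 0.32, 0.07 and -0.10 in that order. CD14, which also stands in the immune marker list, was at -0.18 ± 0.20. It was detected on 2 arrays, both of hairpin 2 without doxycycline. CD14 thus passed the filter through that group, and no result is read from its difference. The adjusted p of IGFBP3, ATP2B1 and CD14 was 0.638, 0.691 and 0.780 by limma. Of 12 symbols listed as ESRRA targets, among them ATP5B and ATP5F1B, the old and new symbols of the same gene, 8 were on the array and tested. They had a median of 0.09 and an unadjusted p under 0.05 for 0. The smallest p belonged to ATP5F1B, a subunit of the ATP synthase (-0.26 ± 0.18), the mitochondrial superoxide dismutase SOD2 (0.25 ± 0.20) and IDH3A, a subunit of isocitrate dehydrogenase (0.26 ± 0.21), with limma adjusted p of 0.606, 0.660 and 0.673. The ATP5F1B value was made of -0.07 with hairpin 1, 0.17 with hairpin 2 and 0.31 with the scrambled hairpin. In the hairpin 1 comparison, where ESRRA had its largest difference, the median of the 8 was 0.07, beside 0.01 over all genes tested, and 2 of 8 had an unadjusted p under 0.05, beside 11.1% of all kept probes. That count takes both directions together. IDH3A, 1 of the 2, was higher with doxycycline (0.39 ± 0.18, limma adjusted p = 0.428), and the direction of the other is not given here.

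Among the other 11163 genes tested, the genes with the highest Pearson correlation to each receptor over the 12 arrays were as follows, given as a description, since the arrays share groups and normalization. SLC27A4 (r = 0.96) and RB1CC1 (0.90) were most like NR3C1. APP (0.95) and DDN (0.95) stood nearest to ESRRA, and SLC40A1 (0.93) and TMEM50B (0.92) to VDR. For the retinoid receptors, MCUB (0.89) and GRM2 (0.86) were nearest to RARA, and DAPL1 (0.90) and EEF2K (0.89) to RXRA. AKR1D1 (0.97) and GRB10 (0.91) were most like NR2F1, SELENOI (0.96) and RHOBTB3 (0.94) most like NR2F6, and RNF34 (0.89) and PDZD8 (0.84) most like PPARA.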

How the data were processed

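RNA of 12 samples was labelled with biotin (500 ng, per the labels' protocols) and hybridised to bead arrays. The deposited non-normalized table gives an intensity per probe and array in the scanner's units with a detection p-value beside it, per the file headers, and 1479 blank lines were left out. The deposited series matrix gives log2 values. BeadStudio and Partek, per the submitters' processing notes, were the authors' tools, with no version given.

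From the non-normalized intensities, neqc of limma 3.58.1 in R 4.3.3 removed background (fitted through the detection p-values), applied an offset of 16 and quantile normalization, and took log2. Kept were 19172 of 47323 probes, those with a detection p below 0.01 in 2 or more arrays. A linear model over the 6 groups (2 arrays each) with empirical Bayes moderation gave 10 contrasts, with two-sided p-values adjusted by Benjamini and Hochberg over all kept probes and a threshold of 0.05. Gene names came from the platform annotation: 30113 probes had 1 symbol, 8 had several and 17202 had no entry. By gene ID 30074 were found in RefSeq, with 0 symbols changed. The number of arrays limits the precision. Scripts were tested on simulated data.

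Named are all 9 genes with every probe, HNF4G, the 3 genes with the smallest p of each list for the mean hairpin response minus the scrambled response, every list gene past the threshold, and the 2 genes most correlated with each receptor. The members and the 12 lists (7 of pathways, 5 of cell type markers) were chosen with earlier results of these data known. Alternatives changed the background correction, scaling, input table, offset, filter, unit of test, replicate block, arrays left out and samples in the fit. Same-numbered replicates did not deviate together (15 correlations between groups, -0.03 to 0.06), so the main fit did not pair samples by number. These correlations cannot show whether same-numbered samples were grown or run together.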

Additional observations from a re-analysis of the deposited data

Results flagged for a closer look

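A second NR3C1 probe, ILMN_1812384, failed the filter and was in none of the comparisons above. It was detected on 1 array, replicate 1 of hairpin 2 without doxycycline, with a normalized log2 intensity of 4.98 and a detection p of 0.00909. It was not detected on the other 11 arrays. Without the filter its log2 difference with doxycycline was -0.57 with hairpin 2, 0.29 with hairpin 1 and 0.01 with the scrambled hairpin. The further NR3C1 probe ILMN_1668525, detected on 0 arrays, gave 0.37, 0.30 and -0.02 in that order. None of these passed (lowest limma adjusted p = 0.203). Both probes lay near background, so no fold is given.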

How the results depend on the processing

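Over 21 alternative settings, 1658 of 1662 recomputed differences of the 8 receptor probes stayed on the same side of the threshold, and 61 that passed no threshold changed sign. The main analysis called 0 of these differences, so no call could be lost. The settings without background correction and with the series matrix values use nearly the same values and do not count as separate. The count of receptor probes past the threshold for hairpin 1, doxycycline against none, moved to 1 (ESRRA) without background correction, with the series matrix values and with an offset of 50, and for hairpin 1 minus the scrambled response to 1 (ESRRA) with an offset of 50. Leaving out each array in turn left this count at 0 to 0 in all 10 comparisons. With the replicate number as a block, the count of receptor probes was 0 in each comparison, ESRRA with hairpin 1 had a limma adjusted p of 0.0586, and of the calls named only that of DHRS3 was lost. The HNF4G difference with doxycycline passed in every setting run, from -1.56 with median scaling to -0.55 without background correction for hairpin 1 and from -2.10 without 1 array to -0.77 without background correction for hairpin 2. HNF4G for hairpin 1 minus the scrambled response passed with median scaling (-1.39, adjusted p = 0.0352), and for hairpin 2 minus the scrambled response it did not pass with only the groups compared (adjusted p = 0.0505). For all kept probes the counts past the threshold moved more. With hairpin 1, 113 passed in the main analysis, 282 without background correction, 298 with an offset of 50, and 30 to 298 over all settings. The range over all settings was 38 to 597 around 186 with hairpin 2 and 0 to 43 around 6 with the scrambled hairpin. Minus the scrambled response, it was 1 to 190 around 40 for the mean of the hairpins, 0 to 125 around 34 for hairpin 1 and 1 to 279 around 41 for hairpin 2, and for the difference between the hairpins 0 to 164 around 8. Without doxycycline it was 10 to 160 around 64 for hairpin 1 against scrambled, 12 to 146 around 48 for hairpin 2 against scrambled, and 0 to 3 around 1 for hairpin 2 against hairpin 1. Where an array was left out of a group of 2, the remaining array was assumed to vary like the other groups. The fit with only the groups compared was not run for the mean hairpin response, which uses all 6 groups. With median scaling the median log2 difference of all kept probes lay between -0.08 and 0.03 over the 10 comparisons. In the main analysis it lay between -0.003 and 0.014. The cause of this change was not tested. Probes near the background, those of PPARA, VDR and NR3C1, limit what can be read from their differences.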
